A study of Mus musculus with 16 samples.

Results

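The aminoacyl-tRNA synthetase genes were followed across brain endothelial cells with and without Pdcd10 (also called Ccm3), untreated or given propranolol or rapamycin. The set held 39 of the 54193 genes in the quantification: 19 cytosolic synthetases, 16 mitochondrial synthetases (symbols ending in 2), 3 non-enzymatic partners of the cytosolic enzymes (Aimp1, Aimp2 and Eef1e1), and Exosc6, which was included because its exon lies inside the last exon of Aars1. The genes were chosen by name and function, and read counts were summed over all transcripts of each gene. The cells were primary mouse brain microvascular endothelial cells (mBMEC) isolated from Cdh5(PAC)-CreERT2/Pdcd10 fl/fl mice aged 8 to 10 weeks, so every group carried the floxed alleles and the Cre transgene, whose Cdh5 promoter is active in endothelium. Knockout (KO) cultures had received 4-hydroxytamoxifen to delete Pdcd10 and wild-type (WT) cultures had not. All cultures were purified with puromycin, and each came from the pooled brains of several mice. Cells were left untreated (WT, n = 3; KO, n = 3), exposed to 10 µM propranolol, a beta-adrenergic receptor blocker, for 24 h (WT+P, n = 2; KO+P, n = 3), or exposed to 100 nM rapamycin, an inhibitor of the kinase complex mTORC1, for 24 h (WT+R, n = 2; KO+R, n = 3).

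An aminoacyl-tRNA synthetase joins an amino acid to its matching tRNA, the step that supplies both the ribosomes of the cytosol and those of the mitochondrion. Most amino acids have one nuclear gene for the cytosolic enzyme and a separate nuclear gene for the mitochondrial enzyme, while Gars1 and Kars1 encode enzymes for both compartments. Several cytosolic enzymes (among them those encoded by Eprs1, Lars1, Mars1, Qars1, Rars1, Kars1 and Iars1) form a multisynthetase complex held together by the products of Aimp1, Aimp2 and Eef1e1. When uncharged tRNA accumulates, the kinase GCN2 phosphorylates the translation initiation factor eIF2, which raises translation of the transcription factor ATF4. ATF4 binds C/EBP-ATF response elements in the promoters of genes for amino acid synthesis, amino acid transport and many cytosolic synthetases.

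The core of the C/EBP-ATF response element, TGATGNAA or its reverse complement TTNCATCA, was searched on both strands of the RefSeq promoters of assembly GRCm38.p6, each running from 250 bases before to 50 bases after a transcription start. It was present in 3.97% of the 32851 promoters. Of the 39 genes 30 had a promoter in that collection, and the element was found in 5 of 12 cytosolic synthetases, in 0 of 14 mitochondrial synthetases and in 0 of 3 partner genes. A match in each of these 5 genes is shown, and 4 of them, all but Iars1, are set beside their propranolol values below. Aars1 held a second match, at position -112, which is not shown. Each window is 30 bases, read 5′ to 3′ on the strand of the gene, with the element in capitals and its first base counted from the transcription start. Aars1 (alanine) held an element at position 10 in chr8:111033840-111033869 (plus strand). Gars1 (glycine) held one at position -30 in chr6:55037960-55037989 (plus strand), Iars1 (isoleucine) one at position 8 in chr13:49682126-49682155 (plus strand), Tars1 (threonine) one at position -15 in chr15:11399655-11399684 (minus strand) and Yars1 (tyrosine) one at position 4 in chr4:129189895-129189924 (plus strand).
Aars1: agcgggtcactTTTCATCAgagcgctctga
Gars1: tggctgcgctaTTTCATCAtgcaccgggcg
Iars1: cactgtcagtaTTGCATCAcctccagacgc
Tars1: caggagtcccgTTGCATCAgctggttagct
Yars1: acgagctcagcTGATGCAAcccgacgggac
These are sequence matches only, and binding of any factor was not measured.

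The 16 libraries held between 18830503 and 26203339 estimated counts. Pdcd10 was at 9.72, 11 and 9.73 counts per 1000000 counts (CPM) in the KO libraries and at 11.5, 31.2 and 47 CPM in the WT libraries, so that the library labelled WT replicate 1 was at the KO level. The mitochondrial ribosomal RNAs mt-Rnr1 and mt-Rnr2 stood at 16.3 and 44.2 CPM in KO+P replicate 3 and at 121 to 672 and 219 to 1030 CPM elsewhere. All 10 endothelial markers were expressed and summed to 6882 to 14395 CPM, with 11110 to 14395 CPM in WT, 6882 to 10664 CPM in WT+P, 9866 to 10559 CPM in WT+R, 11487 to 12684 CPM in KO, 7375 to 10947 CPM in KO+P and 10998 to 12170 CPM in KO+R. The 8 mural cell markers summed to 94.7 to 835 CPM in WT, 406 to 1394 CPM in WT+P, 1463 to 2488 CPM in WT+R, 67.5 to 202 CPM in KO, 112 to 432 CPM in KO+P and 269 to 450 CPM in KO+R, with the means of Kcnj8 and Abcc9 below 0.1 CPM. The rapamycin libraries thus lay above the untreated ones in mural markers in both genotypes. In endothelial markers the propranolol libraries lay below the untreated ones in both genotypes, and in WT the rapamycin libraries did so too. The part of these markers in the results below was not tested. In such bulk samples fewer cells of a type and less RNA per cell cannot be told apart.

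In untreated cells the cytosolic enzymes were the more abundant class. Per unit of transcript length, the median level over the 6 untreated libraries was 53.1 transcripts per 1000000 (TPM) for the 19 cytosolic genes (range 0.0629 to 178 TPM) and 13 TPM for the 16 mitochondrial genes (range 2.49 to 150 TPM). Rars1 (arginine) led with 178 TPM (138 to 226 over libraries), followed by Gars1 with 150 TPM (130 to 178), Lars2 (mitochondrial leucine) with 150 TPM (64.9 to 267) and Sars1 (serine) with 138 TPM (120 to 176), whose ranges overlapped. Kars1 (lysine) came next with 95.8 TPM (83.9 to 106), below the lowest Gars1 and Sars1 library. Without Lars2, which is treated separately below, no mitochondrial gene exceeded the 30.4 TPM of Tars2 (threonine). Summed TPM of the cytosolic enzymes lay between 1118 and 1390 in WT, 1662 and 2951 in WT+P, 1123 and 1216 in WT+R, 1090 and 1304 in KO, 1413 and 2564 in KO+P, and 1014 and 1154 in KO+R. Both propranolol groups thus lay above every untreated and rapamycin library. The mitochondrial sum without Lars2 stayed between 144 and 218 TPM in all 16 libraries, with the lowest range in KO+R (144 to 157 TPM).

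**Figure D1:**
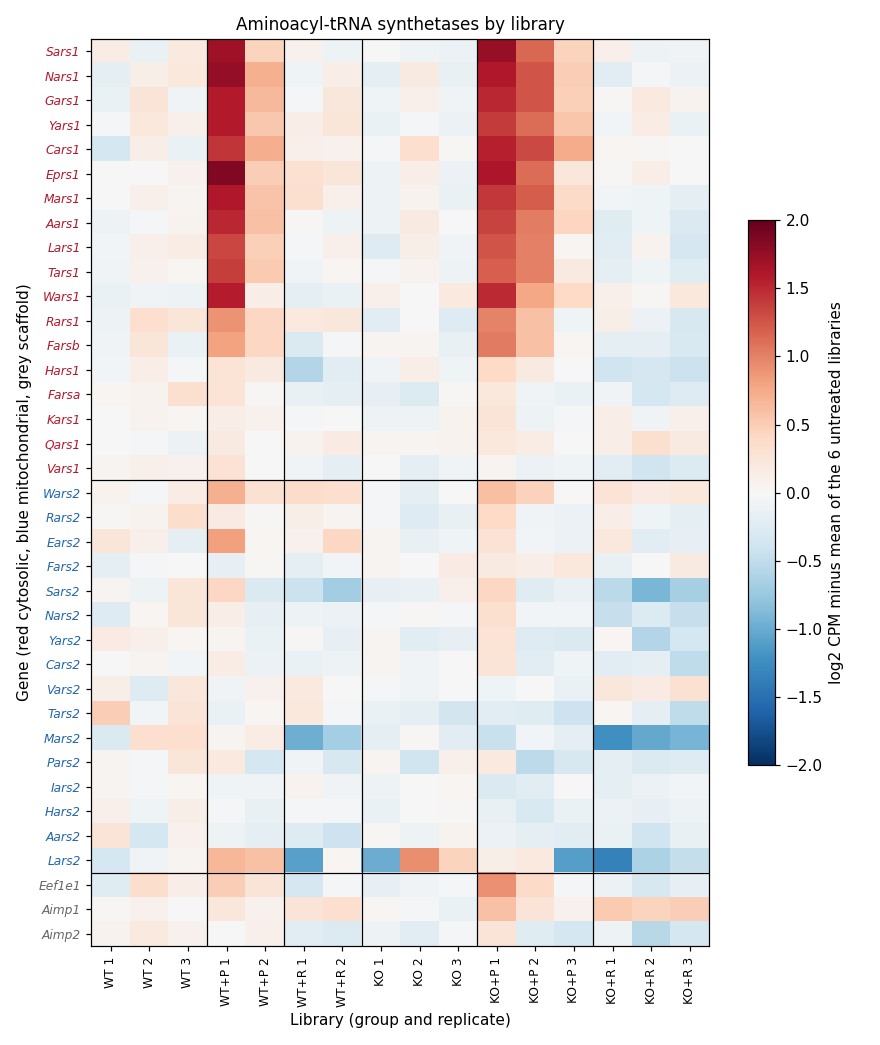
Heat map of log2 CPM of each gene (rows, grouped as cytosolic, mitochondrial and scaffold) in each of the 16 libraries (columns, by group), as the difference from the gene's mean over the 6 untreated libraries, with Iars1 and Exosc6 left out. The upper cytosolic rows are high in the 5 propranolol columns, least so in KO+P replicate 3 and WT+P replicate 2, while most mitochondrial rows stay near 0 and Mars2 is low in the rapamycin columns.

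Propranolol in KO cells went with higher levels of most cytosolic synthetases and of almost no mitochondrial one. A gene was called when its adjusted p was below 0.05 and its fold change above 1.5 in edgeR's quasi-likelihood test with Benjamini-Hochberg adjustment over 14838 genes. All 39 genes passed the filter on low counts. In KO+P against KO the single call among the 39 was Exosc6, in a comparison with few calls at all (0.00674% of the genes tested), so the synthetases themselves are described here by their values. Of the 18 cytosolic enzymes measured well (Iars1 is treated separately), 13 were more than 1.5-fold higher, against 0 of 16 mitochondrial enzymes and 8.84% of all genes. Their median log2 fold change was 0.90, against -0.02 for the mitochondrial enzymes and -0.01 for all genes. In 10 of the 18, every KO+P library lay above every KO library, as was so for 0 of 16 mitochondrial enzymes and for 9.58% of all genes.

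Sars1 and Nars1 had the largest values in KO cells. Sars1, for serine, was at 184, 173 and 169 CPM in KO and at 616, 408 and 252 CPM in KO+P (log2 fold change 1.28, SE 0.31, adjusted p 0.204). Nars1 (asparagine) was at 120, 155 and 123 CPM in KO and at 414, 327 and 192 CPM in KO+P (1.23, SE 0.28, adjusted p 0.19). Neither gene's groups overlapped, and in both the third KO+P library stood nearest to the untreated ones. Gars1 was at 195, 223 and 198 CPM in KO and at 588, 495 and 290 CPM in KO+P (1.16, SE 0.26, adjusted p 0.19). Yars1 was at 39.9, 42.8 and 40.5 CPM in KO and at 115, 95 and 64.2 CPM in KO+P (1.15, SE 0.24, adjusted p 0.167). Cars1 (cysteine) was at 61.9, 79.4 and 63.6 CPM in KO and at 184, 156 and 105 CPM in KO+P (1.12, SE 0.21, adjusted p 0.121), the smallest adjusted p among the cytosolic enzymes. These 3 genes also had no overlap between the groups.

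The remaining enzymes of this response had smaller or less even differences. Aars1 was at 138, 166 and 146 CPM in KO and at 377, 298 and 198 CPM in KO+P (log2 fold change 0.96, SE 0.23). Tars1 was at 55, 59.4 and 52.4 CPM in KO and at 129, 113 and 63.7 CPM in KO+P (0.87, SE 0.23). Mars1 (methionine) was at 48.9, 55.4 and 48.1 CPM in KO and at 141, 122 and 68.8 CPM in KO+P (1.12, SE 0.26). Without strand information Mars1 cannot be read alone, because 47.2% of its annotated exonic bases are shared with another gene, Ddit3, which was at 20.2 to 24.2 CPM in KO and 41.9 to 202 CPM in KO+P. Eprs1, the joint enzyme for glutamate and proline, was at 87.3, 102 and 86.6 CPM in KO and at 288, 203 and 109 CPM in KO+P (1.12, SE 0.32). Lars1 (leucine) was at 43.3, 56.5 and 49.8 CPM in KO and at 125, 105 and 53.4 CPM in KO+P (0.92, SE 0.27), so that the third treated library lay within the untreated range. Farsb, the beta subunit for phenylalanine, was at 41.8, 41.7 and 36.5 CPM in KO and at 83.3, 60.6 and 41.5 CPM in KO+P (0.63, SE 0.21) and also overlapped. Wars1 (tryptophan) and Rars1 had log2 fold changes of 0.86 and 0.72.

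In WT cells given propranolol the cytosolic class again stood apart from the mitochondrial one. In WT+P against WT the single call was again Exosc6 (0.00674% of all genes called). Of the 18 cytosolic enzymes 12 were more than 1.5-fold higher, against 1 of 16 mitochondrial enzymes, Lars2, and 10.3% of all genes. The median log2 fold change was 1.03 for the cytosolic enzymes, -0.04 for the mitochondrial enzymes and 0.00 for all genes. Both WT+P libraries lay above all 3 WT libraries for 16 of the 18 cytosolic enzymes, for 2 of 16 mitochondrial enzymes and for 10.8% of all genes. Eprs1 had the largest value, with 93.5, 93.2 and 99.1 CPM in WT and 337 and 132 CPM in WT+P (1.30, SE 0.35, adjusted p 0.316). Nars1 was at 119, 148 and 158 CPM in WT and at 458 and 223 CPM in WT+P (1.27, SE 0.30, adjusted p 0.275). Cars1 was at 49.2, 68.6 and 57.1 CPM in WT and at 168 and 104 CPM in WT+P (1.22, SE 0.23, adjusted p 0.132). In these 3 genes the treated and untreated libraries did not overlap, and WT+P replicate 1 was the higher treated one. Gars1 was at 190, 248 and 197 CPM in WT and at 621 and 325 CPM in WT+P (1.16, SE 0.28), and Aars1 was at 138, 143 and 155 CPM in WT and at 420 and 221 CPM in WT+P (1.14, SE 0.25).

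**Figure D2:**
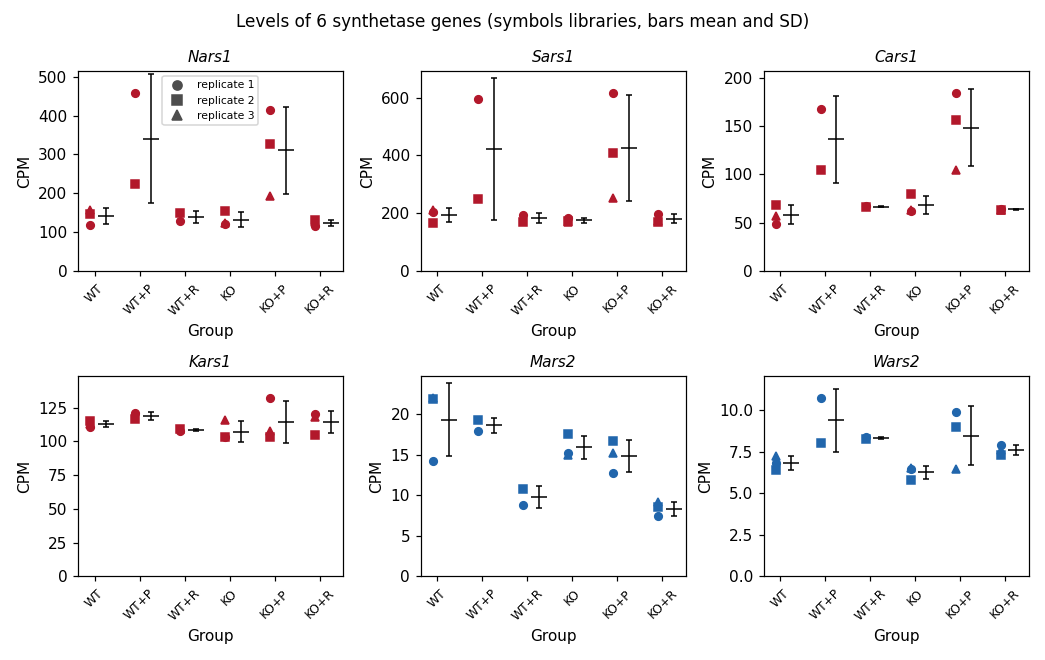
CPM of Nars1, Sars1, Cars1, Kars1, Mars2 and Wars2 by group, with 1 symbol per library (shape gives the replicate number) and a bar for the group mean with its SD (n = 3, or 2 in WT+P and WT+R). For Nars1, Sars1 and Cars1 the propranolol libraries spread widely and lie above the untreated ones, Kars1 lies between 103 and 132 CPM in all 16 libraries, and Mars2 is lowest in WT+R and KO+R.

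The size of the propranolol difference varied between the treated libraries for the cytosolic class as a whole. Against the untreated library of the same replicate number, the median log2 difference of the 18 cytosolic enzymes was 1.41, 0.86 and 0.25 in KO+P replicates 1, 2 and 3, and 1.5 and 0.34 in WT+P replicates 1 and 2. The corresponding medians of the mitochondrial enzymes were 0.17, -0.08 and -0.06 in KO+P, and 0.13 and -0.05 in WT+P. The smallest difference in KO cells was that of KO+P replicate 3, which also had the low mt-Rnr1 and mt-Rnr2 levels. Leaving it out therefore favoured calls. Leaving out 1 of the 6 libraries of KO+P and KO at a time gave 1 to 13 calls among the 39 genes. The 13 came without KO+P replicate 3 and were 12 cytosolic enzymes and Exosc6, with 2.24% of all genes called. Among these were Nars1 (log2 fold change 1.48, adjusted p 0.0207), Gars1 (1.40, 0.017), Cars1 (1.31, 0.0125) and Lars1 (1.20, 0.0235). Without WT+P replicate 2, 10 cytosolic enzymes and Exosc6 were called in WT+P against WT, where 3.54% of all genes were called, with the lone treated library assumed to vary like the other groups. With DESeq2 and all libraries, 8 cytosolic enzymes and Exosc6 were called in KO+P against KO, with 1.08% of all genes. In WT+P against WT it called 8 cytosolic enzymes, Iars1 among them, and Exosc6, with 0.835% of all genes.

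**Figure D3:**
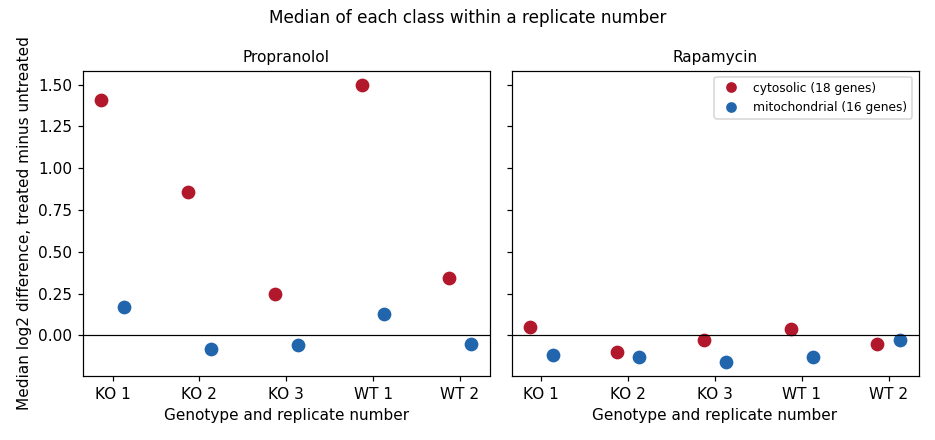
Median log2 difference between a treated library and the untreated library of the same genotype and replicate number, 1 point each for the 18 cytosolic and the 16 mitochondrial enzymes, with propranolol on the left and rapamycin on the right. With propranolol the cytosolic median lies above the mitochondrial one for every replicate number, from 0.25 to 1.5, and with rapamycin all medians lie close to 0.

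A subset of cytosolic synthetases had small values with propranolol in both genotypes. With propranolol Kars1 had log2 fold changes of 0.09 (SE 0.10) in KO and 0.07 (SE 0.11) in WT, Qars1 (glutamine) 0.06 (SE 0.09) and 0.15 (SE 0.10), and Vars1 (valine) 0.03 (SE 0.10) and 0.07 (SE 0.11). Kars1 was at 103, 103 and 116 CPM in KO and at 132, 103 and 108 CPM in KO+P, so its groups overlapped. Vars1 was at 83.1, 73.9 and 79.6 CPM in KO and at 86.3, 76.9 and 78.6 CPM in KO+P, again overlapping. Farsa, the alpha subunit of the phenylalanine enzyme, had values of 0.14 (SE 0.13) and 0.01 (SE 0.14), below the 0.63 and 0.60 of its partner subunit gene Farsb. Farsa was at 51.2, 47.1 and 57.9 CPM in KO and at 65.9, 54.7 and 52.1 CPM in KO+P. Hars1 (histidine) had values of 0.21 (SE 0.12) and 0.22 (SE 0.14). In WT cells Kars1 (111, 115 and 113 CPM against 121 and 117 CPM with propranolol), Qars1 and Hars1 did not overlap between the groups and are among the 16 of 18 counted above, despite these small values. Within the multisynthetase complex, values in KO therefore ran from 0.06 for Qars1 and 0.09 for Kars1 to 1.12 for Eprs1 and Mars1. The scaffold genes Aimp1, Aimp2 and Eef1e1 had log2 fold changes of 0.36, 0.03 and 0.56 in KO and of 0.12, -0.07 and 0.27 in WT, all uncalled, and 90.4% of the exonic bases of Aimp2 are shared with Eif2ak1 and Pms2.

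Promoter matches were set beside these values for the 11 cytosolic enzymes with a promoter sequence, leaving out Iars1. The 4 with a match (Aars1, Gars1, Tars1 and Yars1) had log2 fold changes of 0.87 to 1.16 with propranolol in KO (median 1.06) and of 1.00 to 1.16 in WT (median 1.10). The 7 without a match had 0.06 to 1.28 in KO (median 0.63) and 0.01 to 1.30 in WT (median 0.60). Of those 7, Sars1, Eprs1 and Mars1 reached 1.28, 1.12 and 1.12 in KO, so values above 1 also occurred in promoters without these letters.

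The mitochondrial enzymes were the contrast within the same cells. Each cytosolic gene was paired with the mitochondrial gene for the same amino acid, with Farsa and Farsb both set against Fars2 (phenylalanine), Eprs1 against Ears2 (glutamate) and Pars2 (proline), and isoleucine left out. The cytosolic gene had the higher log2 fold change in 16 of 16 pairs with propranolol in KO and in 16 of 16 in WT. Some of these were near ties, with differences of 0.04 in KO and 0.01 in WT for Farsa, and of 0.08 and 0.10 for Vars1. With rapamycin it was higher in 8 of 16 pairs in KO and in 11 of 16 in WT. The comparisons within a genotype share their untreated libraries. Wars2 (mitochondrial tryptophan) had the largest propranolol value of the mitochondrial class after Lars2 in WT and the largest positive one in KO. Wars2 was at 6.43, 5.77 and 6.53 CPM in KO and at 9.87, 9 and 6.45 CPM in KO+P (0.44, SE 0.18, adjusted p 0.359). It was at 6.81, 6.39 and 7.22 CPM in WT and at 10.7 and 8.04 CPM in WT+P (0.46, SE 0.20, adjusted p 0.486). Its groups overlapped in KO and not in WT.

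**Figure D4:**
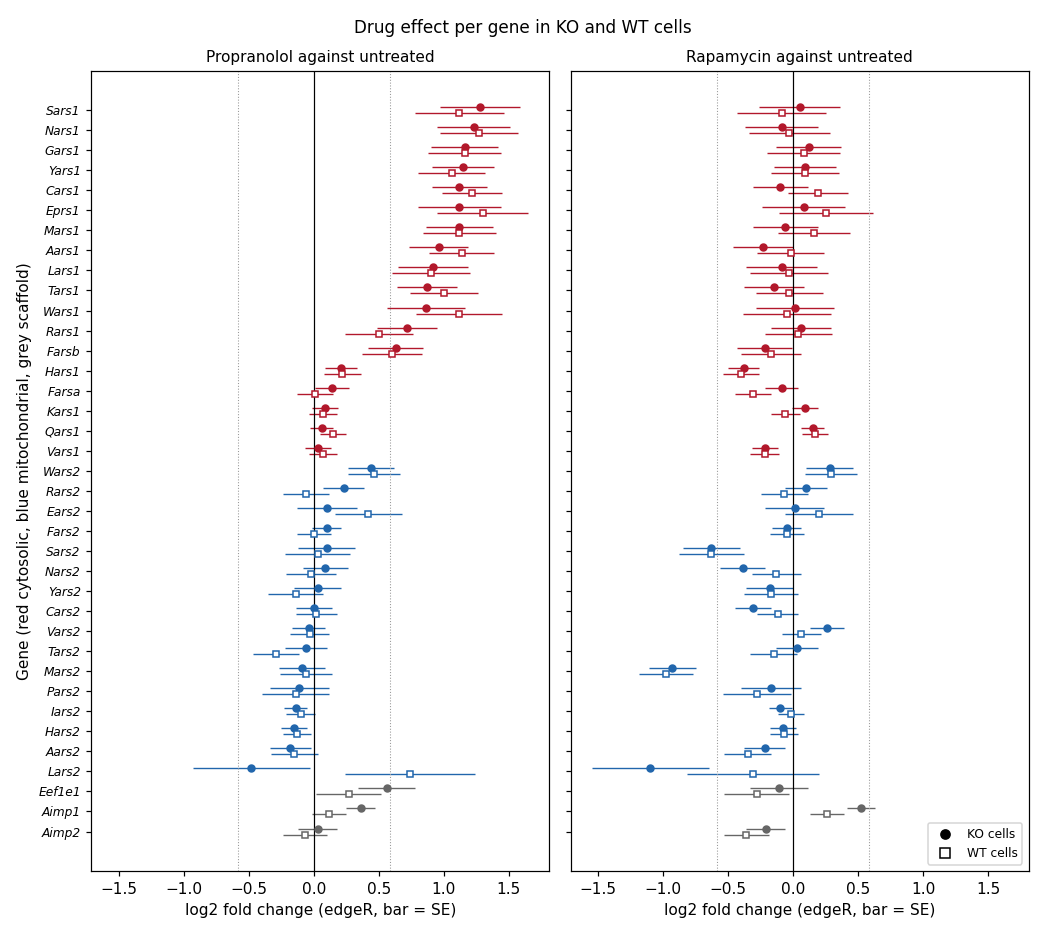
Log2 fold change of each gene (rows, by class) with its SE from the edgeR fit, propranolol on the left and rapamycin on the right, filled circles for KO and open squares for WT cells, and dotted lines at a fold of 1.5. Iars1 and Exosc6 are left out because their values are off this scale. Most cytosolic enzymes lie near 1 with propranolol in both genotypes and near 0 with rapamycin, and Mars2 lies near -1 with rapamycin.

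Rapamycin lowered Mars2, the mitochondrial methionine enzyme, and no other of the 39 genes was called without the replicate block. Mars2 was at 15.2, 17.6 and 15 CPM in KO and at 7.41, 8.53 and 9.13 CPM in KO+R. It fell by 0.93 on the log2 scale (SE 0.18, adjusted p 0.0256 in edgeR's quasi-likelihood test), in a comparison in which 1.51% of all genes were called. Mars2 was at 14.2, 21.9 and 22 CPM in WT and at 8.86 and 10.8 CPM in WT+R, and fell by 0.98 (SE 0.21, adjusted p 0.0347), with 1.4% of all genes called. In both genotypes every rapamycin library lay below every untreated library. Leaving out any 1 of the 6 libraries ended the KO call and leaving out any but WT replicate 1 ended the WT call, as did the effective length offset in both and, in WT, the fits without the filter on low counts and with only the groups compared, with log2 fold changes between -1.16 and -0.82 throughout. With the replicate number as a block the adjusted p was 0.00213 in KO and 0.0056 in WT. Of the annotated exonic bases of Mars2 33.9% are shared with Boll, which was at or below 0.133 CPM in every library.

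Sars2 (mitochondrial serine) followed Mars2 with rapamycin without a call. It was at 10.2, 10.4 and 12.2 CPM in KO and at 7.89, 6.07 and 7.22 CPM in KO+R (log2 fold change -0.63, SE 0.22, adjusted p 0.231), and at 11.9, 10.7 and 13.5 CPM in WT and 8.46 and 7.05 CPM in WT+R (-0.63, SE 0.25, adjusted p 0.29). The libraries did not overlap in either genotype, and with the replicate block Sars2 was called in KO+R (adjusted p 0.039), where 4.98% of all genes were called. In KO+R 5 of 16 mitochondrial and 3 of 18 cytosolic enzymes lay below KO in every library, against 13.2% of all genes. In WT+R this held for 5 of 16 and 4 of 18, against 14.7% of all genes. Median log2 fold changes with rapamycin were -0.14 for the mitochondrial and -0.08 for the 18 cytosolic enzymes in KO, and -0.13 and -0.03 in WT. Hars1 had the largest value of the cytosolic class in both, with 60.9, 70.2 and 60 CPM in KO and 48.4, 50.8 and 47.2 CPM in KO+R (-0.38, SE 0.12, adjusted p 0.176), and -0.40 (SE 0.14, adjusted p 0.199) in WT. Aimp1 went the other way, with 50.1, 48.3 and 44.9 CPM in KO and 70.4, 66.5 and 68.6 CPM in KO+R (0.52, SE 0.11, adjusted p 0.0399), without overlap but under the fold of 1.5 that a call required.

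Set directly against each other, the drugs separated the cytosolic synthetases in KO cells. In KO+R against KO+P 12 of the 39 genes were called, with 4.08% of all genes. 10 cytosolic enzymes and Mars2 were lower in KO+R, 11 of 39 genes against 2.51% of all genes, and Exosc6 was higher. Nars1 (log2 fold change -1.32, SE 0.28, adjusted p 0.0197), Sars1 (-1.23, SE 0.31, 0.04), Cars1 (-1.22, SE 0.21, 0.00842), Aars1 (-1.19, SE 0.23, 0.0143) and Mars1 (-1.19, SE 0.26, 0.0215) had the largest differences. Yars1 fell by 1.07 (adjusted p 0.0249), Gars1 by 1.04 (0.0363), Tars1 by 1.02 (0.0272), Farsb by 0.84 (0.0362) and Hars1 by 0.59 (0.0179). In 13 of the 18 cytosolic enzymes every KO+R library lay below every KO+P library, KO+P replicate 3 included, against 13.9% of all genes. For Cars1 these were 64.4, 63.6 and 63.2 CPM against 184, 156 and 105 CPM, and for Hars1 48.4, 50.8 and 47.2 CPM against 84, 72.2 and 64.1 CPM. With the replicate block Lars1 (-0.98, adjusted p 0.032) and Sars2 (-0.73, adjusted p 0.0154) were called as well, giving 14 of 39 genes against 9.62% of all genes. The calls needed nearly all libraries: without KO+P replicate 3 there were 17, and without any other of the 6 there were 2 or 3 (4 to 12 with the block, and 19 without KO+P replicate 3), while the median of the cytosolic enzymes stayed between -1.27 and -0.76.

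The same contrast in WT cells rested on 2 libraries a group and made fewer calls. In WT+R against WT+P only Exosc6 was called in the fit without the block, with 1.31% of all genes, although the median log2 fold change of the 18 cytosolic enzymes was -0.97, close to the -1.02 in KO. Nars1 had -1.29 (SE 0.34, adjusted p 0.0866), Aars1 -1.16 (SE 0.29, 0.0695), Cars1 -1.03 (SE 0.26, 0.0737) and Mars2 -0.92 (SE 0.22, 0.0618). With the replicate block 6 of 39 genes were called, Aars1, Cars1, Hars1, Tars1, Mars2 and Exosc6, against 4.93% of all genes. Hars1, at 77.4 and 72.4 CPM in WT+P and 42.7 and 54.7 CPM in WT+R, had an adjusted p of 0.0629 without and of 0.0197 with the block. Without WT+P replicate 2, which left a single WT+P library, the median log2 fold change of the 18 cytosolic enzymes was -1.37.

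Loss of Pdcd10 on its own made no call among these genes. In KO against WT edgeR called 0 of 39 genes with and without the replicate block, and DESeq2 called 0. The edgeR fit without the block called 1 of 14838 genes (0.00674%), so the 0 calls there say little about these genes. Without the library labelled WT replicate 1, which had Pdcd10 at the KO level, edgeR also called 0. At an unadjusted p below 0.05 there were 2, Tars2 and Farsa. Tars2 was at 55.1, 37.7 and 46.6 CPM in WT and at 35.8, 34.2 and 30.2 CPM in KO (log2 fold change -0.48, SE 0.16, adjusted p 0.591), and Farsa at 58.7, 59.7 and 71.2 CPM and at 51.2, 47.1 and 57.9 CPM (-0.28, SE 0.13, adjusted p 0.813). Neither gene's groups overlapped. Median log2 fold changes were -0.06 for the 18 cytosolic and -0.10 for the mitochondrial enzymes. The effect of each drug did not differ detectably by genotype, since the interaction test called 0 of 39 genes for propranolol and 0 for rapamycin, with 0% of all genes in each, 0 of the 39 at an unadjusted p below 0.05 in either, and 0 with DESeq2. The precision was limited: the interaction for propranolol was -0.04 (SE 0.41) on the log2 scale for Nars1 and 0.16 (SE 0.46) for Sars1.

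Exosc6, a subunit of the RNA exosome, was the one gene called in every propranolol comparison, and its values cannot be separated from those of Aars1. In the GRCm39 assembly Aars1 spans chr8:111754391-111784296 on the plus strand. The single exon of Exosc6 lies at chr8:111782971-111784296 on the same strand, and all its 1326 bases fall inside the last exon of Aars1, which is 2646 bases long. Exosc6 had 0 estimated counts in all 5 propranolol libraries and 222 to 682 in the other 11. Against a floor of 3 counts per library it was at least 115-fold lower in KO+P than in KO and at least 145-fold lower in WT+P than in WT (adjusted p 0.00465 and 0.0193 in edgeR's quasi-likelihood test). The WT call ended without any 1 of the WT libraries or WT+P replicate 1, and both calls ended in a fit of only the groups compared, with the same 0 counts. Aars1 itself was highest in those same libraries, as given above.

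Counted as 1 locus, the sum of Aars1 and Exosc6 followed the other cytosolic enzymes. The sum was 156, 176 and 163 CPM in KO and 377, 298 and 198 CPM in KO+P (log2 fold change 0.82, adjusted p 0.269), without overlap. It was 155, 168 and 169 CPM in WT and 420 and 221 CPM in WT+P (0.97, adjusted p 0.291). Between KO+R, at 151, 149 and 138 CPM, and KO+P the sum fell by 0.99 (adjusted p 0.0273) and kept the call. Reads in the shared exon are assigned to either gene by the quantification model, and the part of this assignment in the 0 counts was not tested. The 10 other subunits and cofactors of the RNA exosome had log2 fold changes of -0.19 to 0.40 with propranolol in KO and of -0.21 to 0.21 in WT, and none was called.

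**Figure D5:**
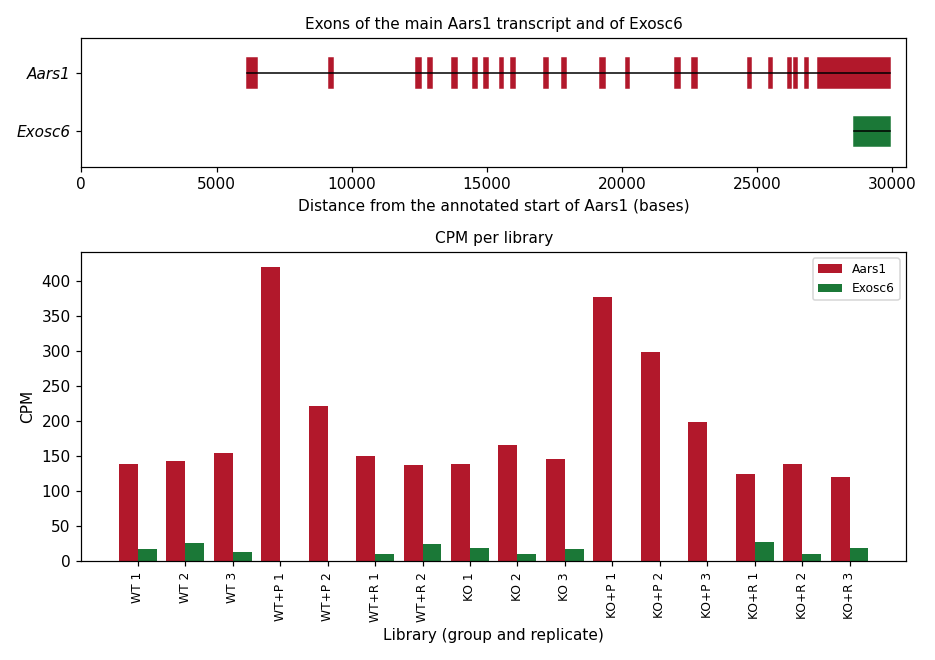
Top, exons of the main Aars1 transcript and of Exosc6 drawn to scale, in bases from the annotated start of Aars1, with the Exosc6 exon inside the last Aars1 exon. Bottom, bars of the CPM of both genes in each of the 16 libraries, in which Exosc6 is at 0 in the 5 propranolol libraries, where Aars1 is highest (198 to 420 CPM).

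Lars2 and Iars1 could not be read like the rest. Most counts of Lars2 fell on a transcript annotated as a target of nonsense-mediated decay, with 2147 to 15235 counts per library (median 6819), against 215 to 1516 (median 566) on the protein-coding transcript. Lars2 was at 160, 606 and 432 CPM in KO, 344, 365 and 148 CPM in KO+P and 125, 206 and 228 CPM in KO+R, a range wider than that of any other mitochondrial enzyme. It was at 250, 302 and 331 CPM in WT, 505 and 479 CPM in WT+P and 150 and 326 CPM in WT+R, and was called in no comparison. The ribosomal RNA gene Rn18s-rs5, a measure of residual ribosomal RNA, was at 2820, 11858 and 6268 CPM in KO, 5914, 8139 and 1934 CPM in KO+P and 2322, 3632 and 3129 CPM in KO+R, high and low in much the same libraries as Lars2. In WT and WT+P libraries the order differed from that of Lars2, with Rn18s-rs5 at 5938, 7359 and 4828 CPM in WT, 7857 and 11234 CPM in WT+P and 3079 and 7274 CPM in WT+R, and its part in the Lars2 level was not tested. Iars1 had 79 counts in WT+P replicate 2, 74 in KO+P replicate 3 and 4 or fewer in the other 14 libraries. Only 8 of its 26 annotated transcripts were quantified, so its level and its log2 fold changes (4.52 with propranolol in KO, 8.26 in WT, both uncalled) say little about the gene.

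Genes that act around the synthetases were counted from fixed lists. Among 12 other genes of tRNA charging (among them editing factors and amidotransferase subunits) 0 were called by edgeR in any drug comparison. Their log2 fold changes ran from -0.15 to 0.49 with propranolol in KO, and 1 of the 12 had an unadjusted p below 0.05 there. Of 27 genes of the GCN2 and ATF4 arm, the list nearest to the cytosolic enzymes, 20 were more than 1.5-fold higher with propranolol in KO (median log2 fold change 1.76) and 21 in WT (median 1.66), against 8.84% and 10.3% of all genes. Of the 27, 0 were called by edgeR in either comparison, where 0.00674% of all genes were called. At an unadjusted p below 0.05 there were 23 and 22, for which no share of all genes is given. In KO+P against KO 17 were called without KO+P replicate 3, against 2.24% of all genes. With the replicate block 2 were called, and no share of all genes is given for that fit. In KO+R against KO+P 19 of the 27 were called, all lower (median -2.19), against 2.51% of all genes called lower. In WT+R against WT+P 4 were called, against 1.31% of all genes, and 16 with the replicate block, against 4.93%. Atf4 had log2 fold changes of 1.65 in KO (adjusted p 0.19) and 1.39 in WT (adjusted p 0.335) with propranolol, and fell by 1.96 from KO+P to KO+R (adjusted p 0.0123). Slc7a5, a large neutral amino acid transporter, fell by 2.99 in that contrast (adjusted p 0.00142). It was the one gene of the list called with rapamycin against untreated cells in the fit without the block. There it fell by 1.56 in KO (adjusted p 0.0405) and by 1.78 in WT (adjusted p 0.0481), with 1.51% and 1.4% of all genes called. With the block 3 were called in each genotype, with 4.98% of all genes called in KO. Chac1, which degrades glutathione, fell by 4.32 from KO+P to KO+R (adjusted p 0.00445).

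The genes whose levels over the 16 libraries were most like the mean of the cytosolic enzymes, as deviations from the mean of each replicate number, were Asns, asparagine synthetase (Pearson's r 0.985), Slc6a9, a glycine transporter (0.978), and Shmt2, the mitochondrial serine hydroxymethyltransferase (0.975). Asns was at 40.6, 50.3 and 36.6 CPM in KO, 452, 275 and 102 CPM in KO+P and 32.5, 38.9 and 32.9 CPM in KO+R, with KO+P replicate 3 again nearest to the untreated libraries. These r are descriptions over 16 libraries that share groups and replicate numbers.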

How the data were processed

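RNA-seq of polyadenylated RNA from 16 libraries was analysed from the transcript tables of Salmon that the authors deposited, 1 per library. The deposited values used were expected counts (estimated, not whole) per transcript, TPM and effective lengths. The submitters' notes name Trim Galore 0.6.7, HTSeq 0.13.5, DESeq2 1.34.0 and Salmon 1.5.2 with assembly GRCm39, while the published methods describe counting by STAR and HTSeq. The transcript index of Salmon is not given in the sources used here, and the library protocol did not keep strand. Of 140789 transcripts 139544 (99.12%) were named by GENCODE vM39, and their counts were summed per gene (54193 genes) and rounded. No column was left unassigned to a sample (0).

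Genes passing filterByExpr (14838 of 27228 with counts) were fitted in edgeR 4.0.16 (R 4.3.3, limma 3.58.1) by the quasi-likelihood test with TMM factors (0.934 to 1.041), a term per group over all 16 libraries and 10 residual degrees of freedom. The common biological coefficient of variation was 32.3% (19% with the replicate number as a block, 8 residual degrees of freedom). Calls needed an adjusted p below 0.05 (Benjamini-Hochberg) and a fold above 1.5, interactions the adjusted p alone. CPM used the TMM-scaled totals. Fold changes were those of the edgeR fit with its default prior count. A prior count of 2 was used only for the log2 CPM values behind the correlations between libraries. The script was tested on simulated data. DESeq2 1.42.0, its size factors, no filter, effective lengths as an offset, only the groups compared, the replicate block and leaving out each library were tried as alternatives.

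Deviations from the group means correlated between libraries of the same replicate number (median r 0.52, 36 pairs). The lowest of these was 0.03, between WT replicate 3 and KO+P replicate 3, and pairs of replicate 3 ran up to 0.41. Between different numbers the median was -0.23 (70 pairs), with the highest, 0.4, between WT+P replicate 2 and KO+P replicate 3. Deviations cancel within a group, which pushes r between different numbers to negative values, so these medians are not independent. The pairing comes from these values and is not stated in the labels, which call the libraries biological replicates.

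Named with values per library were Aars1, Exosc6, every synthetase called with or without the block, and the 4 cytosolic and 2 mitochondrial enzymes of largest change in each drug comparison. The genes, lists and tests were chosen with earlier results of these data known. Exonic bases shared with another gene were counted in GENCODE, and 11 of the 39 genes share none. Promoters came from RefSeq (GRCm38.p6). Some items are not reported here.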

Additional observations from a re-analysis of the deposited data

How the results depend on the processing

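Counts of called genes among the 39 moved by more than 1.5 times as follows, and the cause was not tested. The share of all genes called moved between fits as well. In KO+R against KO+P it was 4.08% in the main fit and 9.62% with the replicate block, and in WT+R against WT+P 1.31% and 4.93%. In KO+R against KO it was 1.51% and 4.98%. With DESeq2 it was 1.08% in KO+P against KO and 0.835% in WT+P against WT, against 0.00674% in the main fit. For other settings no share is given, so those counts describe the fit and not these genes. In KO+P against KO (1 in the main fit) 9 were called with DESeq2, 6 without the filter on low counts, 0 with only the groups compared and 14 with DESeq2 and the replicate block, a setting chosen after seeing the data. In WT+P against WT (1) these were 9, 2, 0 and 7. In KO+R against KO (1) the replicate block gave 2, the effective length offset 0 and DESeq2 with the block 2. In WT+R against WT (1) there were 0 without the filter, with the effective length offset and with only the groups compared, and 2 with DESeq2 and the block. In KO+R against KO+P (12) only the groups compared gave 1. In WT+R against WT+P (1) the replicate block gave 6, DESeq2 11, no filter 4, only the groups compared 0 and DESeq2 with the block 13. Leaving out 1 library at a time gave 1 to 13 calls for KO+P against KO (0 to 16 with the block), 0 to 0 for KO+R against KO (1 to 2), 0 to 11 for WT+P against WT (0 to 12), 0 to 1 for WT+R against WT (0 to 1), 2 to 17 for KO+R against KO+P (4 to 19) and 1 to 11 for WT+R against WT+P (1 to 16). It gave 0 to 0 for KO against WT and both interactions. The median log2 fold change of the cytosolic enzymes ranged over these leave-outs from 0.67 to 1.15 in KO+P against KO, 0.40 to 1.49 in WT+P against WT, -0.10 to 0.01 in KO+R against KO, -0.07 to 0.04 in WT+R against WT, -1.27 to -0.76 in KO+R against KO+P and -1.34 to -0.44 in WT+R against WT+P. The mitochondrial median ranged from -0.17 to -0.05 in KO against WT, -0.16 to -0.06 in KO+R against KO, -0.20 to -0.02 in KO+R against KO+P and -0.24 to 0.05 in WT+R against WT+P. In WT+R against WT the replicate block moved the cytosolic median to -0.09 and the effective length offset the mitochondrial median to -0.07. The block changed no other count by over 1.5 times. Of the values of single genes under all alternatives 289 kept their side of the threshold, 119 lost a call, 40 gained one and none changed sign. With 2 libraries, WT+P and WT+R limit what could be called in WT cells, and levels of Lars2, Iars1, Mars1, Aimp2 and Exosc6 are limited by shared or missing transcripts. Of the 39 genes 14 share over 10% of their exonic bases with another gene. Among them are Farsb (25.4%, with Sgpp2), Yars1 (22.7%, with Nhsl3 and S100pbp), Hars1 (14.6%) and Aars1 (13.2%). The part of this sharing in their values was not tested.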

Other observations

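Elongation factors bring the charged tRNA to the ribosome and move it along. Of 10 cytosolic elongation genes 2 were called with rapamycin in KO and in WT, against 1.51% and 1.4% of all genes, and both rose, while the median log2 fold change of the 10 was 0.06 in each. Eef2, which translocates the ribosome, was at 2478, 2265 and 2363 CPM in KO and at 4613, 4292 and 4239 CPM in KO+R (log2 fold change 0.89, SE 0.13, adjusted p 0.00628 in edgeR's quasi-likelihood test), and rose by 0.79 in WT (SE 0.14, adjusted p 0.0178). Eef1a1, which delivers the charged tRNA, was at 4062, 4111 and 3391 CPM in KO and at 8146, 6907 and 6535 CPM in KO+R (0.90, SE 0.20, adjusted p 0.0392), and rose by 1.05 in WT (SE 0.22, adjusted p 0.0299). Neither gene's untreated and rapamycin libraries overlapped in KO. With propranolol, where 0.00674% of all genes were called in each genotype, edgeR called 0 of the 10, with 1 at an unadjusted p below 0.05 in KO and 0 in WT, and Eef2 had log2 fold changes of 0.11 and 0.14. Set against propranolol directly, rapamycin gave 1 call of the 10 in KO, Eef2 (0.77, adjusted p 0.00699), with 4.08% of all genes called. In WT it gave 0, with 1.31% of all genes called, and 2 with the replicate block, with 4.93%. In WT 2 of the 10 had an unadjusted p below 0.05.

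Among 10 mitochondrial translation factors 1 was called, Mrrf, the mitochondrial ribosome recycling factor, in a comparison with 1.4% of all genes called. Mrrf rose by 1.02 with rapamycin in WT (SE 0.23, adjusted p 0.0469 in edgeR's quasi-likelihood test), from 43.3, 41 and 42.2 CPM to 103 and 67.8 CPM. With propranolol in WT, where 0 of the 10 were called, it was at 85 and 56.4 CPM, also above every untreated library. With rapamycin in KO it had a log2 fold change of 0.37 (adjusted p 0.514).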
